A study of Mus musculus with 2 samples.

Results

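The genes described here make prostaglandins, receive their signal and destroy them. They are 10 genes of the 43346 Ensembl genes in the deposited tables, chosen by symbol: the cyclooxygenases Ptgs1 and Ptgs2, the terminal synthases Ptges, Ptgis and Hpgds, the 4 receptors of prostaglandin E2 (Ptger1, Ptger2, Ptger3 and Ptger4) and the degrading enzyme Hpgd. All 10 were found by their identifiers in both libraries and all passed the filter on low counts, so none is missing from the values below. Polyadenylated RNA came from the sigmoid colon, the distal bend of the large intestine, of 1 female C57BL/6J mouse aged 10 weeks. It was sequenced as 2 technical libraries, called library 2 and library 1 after the technical replicate numbers in the labels. Library 2 was made later than library 1, and no treatment, genotype or second animal was compared. Each ± beside a level is an SD over n = 2 technical libraries and says nothing about differences between mice.

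Prostaglandins are short-lived lipid signals made on demand from arachidonic acid. A cyclooxygenase turns that fatty acid into prostaglandin H2, and a terminal synthase then fixes which prostaglandin results: E2, D2, or I2, also called prostacyclin. In the gut prostaglandin E2 acts on epithelium, muscle, nerves and immune cells through 4 receptors that use different second messengers, and it is known for protecting the mucosa and for changing fluid secretion and motility. The signal ends when the lipid is taken up by cells and oxidised by the dehydrogenase encoded by Hpgd. Its gene is known as active in the surface epithelium of the colon.

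The depth of the libraries and their makeup bear on every value. Library 2 held 20681574 expected counts and library 1 held 25843064, of which the 10 genes took 7428 and 14952. Expected counts are the authors' estimates of reads per gene, and TPM is the authors' level per length, scaled to the same total in each library. The share of nuclear protein-coding genes was 75.3% in library 2 and 31.3% in library 1, so levels are also given as TPM rescaled over the 21461 nuclear protein-coding genes alone. Markers of the labelled tissue were present in both libraries, with sums over 6 epithelial genes of 5486 and 903 TPM in library 2 and library 1, over 6 goblet cell genes of 28522 and 4631 TPM, and over 8 smooth muscle genes of 4947 and 329.8 TPM. Counts carry no molecular identifiers in the sources used here, so every interval covers counting error only. In bulk tissue, fewer cells of a type and less RNA per cell cannot be told apart.

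Hpgd stood far above the other members in both libraries. Hpgd (ENSMUSG00000031613.8, chromosome 8, 56294585 to 56321043, plus strand, GRCm38) encodes 15-hydroxyprostaglandin dehydrogenase, which starts the breakdown of prostaglandins. Its level was 211 TPM in library 2, against 327 TPM in library 1, a mean of 269 ± 81.9 (SD, n = 2), with 4669 and 12043 expected counts. It ranked 523 in library 2 and 114 in library 1 among the 21461 nuclear protein-coding genes. It made up 74.5% of the summed TPM of the 10 genes in library 2 and 88.4% in library 1. Its level was 8.66 times that of the next member in library 2, Ptgs1, and 29.8 times that of the next member in library 1, Ptger4. Its promoter window is printed because this is the gene that dominates the set in both libraries. The window runs from 250 bases before to 50 after the start annotated by RefSeq (GRCm38.p6, chr8:56294302-56294601, plus strand, 5′ to 3′), and capitals mark its match to the TATA box word TATAAA, searched on both strands.

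Hpgd promoter: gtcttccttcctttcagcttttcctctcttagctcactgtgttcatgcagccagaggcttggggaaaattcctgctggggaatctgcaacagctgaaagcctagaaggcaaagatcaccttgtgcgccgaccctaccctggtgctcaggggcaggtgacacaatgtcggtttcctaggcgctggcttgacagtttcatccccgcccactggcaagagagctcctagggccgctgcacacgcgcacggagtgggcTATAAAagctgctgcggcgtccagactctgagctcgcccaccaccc

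This match begins at base 5 counted from the start annotated by RefSeq. The gene start given above, 56294585, is from GENCODE and lies further along the window. The match therefore lies after the RefSeq start and before the GENCODE start. Windows were found for 8 of the 10 genes (all but Ptgis and Ptger1). Hpgd was the 1 of the 8 with TATAAA, a word in 13.6% of the 32851 windows in the table. The GC box word GGGCGG occurred in 5 of the 8 windows and in 35.7% of all windows. These matches are letters in a window and were not tied to any measurement of binding.

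The cyclooxygenases were far less abundant than Hpgd. Ptgs1 (ENSMUSG00000047250.9, chromosome 2, 36230426 to 36252272, plus strand) encodes cyclooxygenase-1, the form known as constitutive. It was at 24.4 TPM in library 2 and 9.72 TPM in library 1, with 719 and 399 expected counts. Over nuclear protein-coding genes alone its levels were close, at 32.3 and 31.02 TPM. Ptgs2 (ENSMUSG00000032487.8, chromosome 1, 150100031 to 150108227, plus strand) encodes cyclooxygenase-2, the form known as inducible by growth factors and inflammation. Its levels were 3.05 TPM in library 2 and 5.03 TPM in library 1 (4.04 ± 1.40), with 187 and 517 expected counts. Ptgs1 was above Ptgs2 in both libraries, by 7.99 times in library 2 and 1.93 times in library 1. Ptgs1 therefore took 88.9% of the summed cyclooxygenase TPM in library 2 and 65.9% in library 1. These values count all transcripts of Ptgs1, also those without a coding sequence. On its coding transcript alone Ptgs1 was at 17.4 TPM in library 2 and 5.43 TPM in library 1. In library 1 it was then only slightly above the 5.03 TPM of Ptgs2. The transcripts of the 2 genes share no run of 31 bases, and no member shares such a run with another member.

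The promoter window and a short stretch of the 3′ untranslated region of Ptgs2 are shown because its textbook regulation, induced transcription of an unstable message, can be read against them. In the promoter (RefSeq, GRCm38.p6, chr1:150099781-150100080, plus strand, 5′ to 3′) capitals mark a cAMP response element core, ACGTCA, and an E-box, CACGTG, which overlap. Both words lie after the annotated start, beginning at bases 13 and 17 counted from it. In the untranslated stretch capitals mark ATTTA, the pentamer of AU-rich elements that destabilise messages. That stretch was chosen because it holds the most ATTTA words of any stretch of its length in the region.

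Ptgs2 promoter: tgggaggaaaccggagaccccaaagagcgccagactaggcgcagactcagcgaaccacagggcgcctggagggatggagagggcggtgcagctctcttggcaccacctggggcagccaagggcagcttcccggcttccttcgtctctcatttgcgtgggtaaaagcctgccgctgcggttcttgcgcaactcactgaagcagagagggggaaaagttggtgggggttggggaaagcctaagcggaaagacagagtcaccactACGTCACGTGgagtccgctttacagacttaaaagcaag

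Ptgs2 3′ untranslated region, bases 12 to 41 after the stop codon: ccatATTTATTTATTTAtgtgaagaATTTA

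Among the 8 promoter windows, ACGTCA and CACGTG occurred in that of Ptgs2 alone, searched on both strands. They occurred in 7.51% and 7.15% of all 32851 windows. The full element TGACGTCA was in none of the 8 and in 1.79% of all. In the longest annotated 3′ untranslated region of each gene (GENCODE M21), Ptgs2 held 14 ATTTA words over 2445 bases. Of 21027 genes, 505 held more, and the median was 1. Ptger2 held 6, Ptger4 5, Ptger3 4, Hpgd 4 and Hpgds 2, and Ptgs1, Ptges, Ptgis and Ptger1 held none. Per length Ptgs2 had 5.73 ATTTA words per kilobase and Hpgd 4.77, against a median of 1.49 over the 18090 genes with at least 200 bases. Hpgd, the most abundant member, was thus closest to Ptgs2 among the 10 on this rate.

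The terminal synthases were at single-digit TPM in both libraries. Ptges (ENSMUSG00000050737.13, chromosome 2, 30889471 to 30929863, minus strand) encodes the microsomal prostaglandin E synthase that is often induced together with Ptgs2. It was at 7.28 TPM in library 2 and 1.10 TPM in library 1 (4.19 ± 4.37), with 268 and 92 expected counts. Ptgis (ENSMUSG00000017969.9, chromosome 2, 167191805 to 167240604, minus strand) encodes prostacyclin synthase, an enzyme of vessels and smooth muscle. It was at 5.54 TPM in library 2 and 0.11 TPM in library 1, with 153 counts (95% exact Poisson interval 129.7 to 179) and 5 counts (1.62 to 11.7). Ptgis therefore rested on very few reads in library 1 and was the member with the lowest level there. Hpgds (ENSMUSG00000029919.4, chromosome 6, 65117293 to 65144908, minus strand) encodes the haematopoietic prostaglandin D synthase, known from mast cells, macrophages and tuft cells. It was at 6.10 TPM in library 2 and 9.51 TPM in library 1, with 289 and 753 expected counts. By level the order of the synthases was Ptges, Hpgds, Ptgis in library 2 and Hpgds, Ptges, Ptgis in library 1. The difference between the mean levels of Ptges and Hpgds was smaller than the spread of Ptges between the libraries.

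Among the 4 receptors of prostaglandin E2, Ptger4 led in both libraries. Ptger4 (ENSMUSG00000039942.11, chromosome 15, 5206661 to 5244187, minus strand) encodes EP4, which couples to Gs and raises cAMP. It was at 15.9 TPM in library 2 and 10.95 TPM in library 1 (13.4 ± 3.46), with 705 and 811 expected counts. Ptger3 (ENSMUSG00000040016.12, chromosome 3, 157566892 to 157645888, plus strand) encodes EP3, which mostly couples to Gi and lowers cAMP. It was at 4.60 TPM in library 2 and 5.29 TPM in library 1, with 126 and 236 expected counts. Ptger2 (ENSMUSG00000037759.5, chromosome 14, 44988195 to 45003820, plus strand) encodes EP2, the other Gs-coupled receptor. It was at 1.23 TPM in library 2 and 0.81 TPM in library 1 (1.02 ± 0.297), with 62 and 68 expected counts. Ptger1 (ENSMUSG00000019464.5, chromosome 8, 83666678 to 83672753, plus strand) encodes EP1, known for raising intracellular calcium. It was at 4.25 TPM in library 2 and 0.33 TPM in library 1, with 250 and 28 expected counts.

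Ptger4 took 61.1% of the summed TPM of the 4 receptors in library 2 and 63.0% in library 1. Ptger2 took 4.74% and 4.66%. By TPM those shares differed little between libraries, while Ptger3 took 17.7% in library 2 and 30.4% in library 1 and Ptger1 took 16.4% and 1.90%. Of the 2 receptors that raise cAMP, Ptger4 thus exceeded Ptger2 in both libraries. Ptger3 came second in both libraries, with Ptger1 close below it in library 2, while Ptger1 was above Ptger2 in library 2 and below it in library 1. By expected counts, which are not corrected for length, Ptger4 took 61.7% in library 2 and 70.95% in library 1, and in library 2 Ptger1, at 21.9%, was above Ptger3, at 11.0%.

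**Figure D1:**
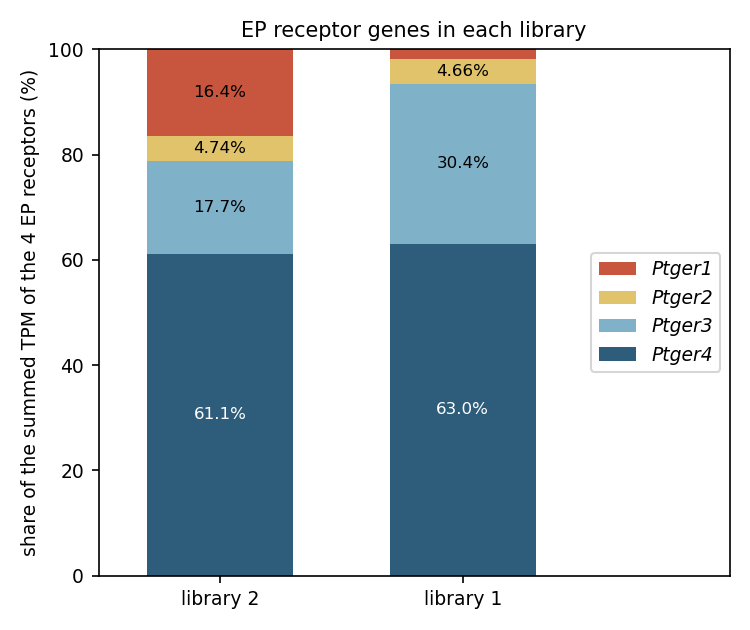
Share of each EP receptor gene in the summed TPM of the 4 receptor genes (vertical axis, percent), with library 2 on the left and library 1 on the right. Ptger4 fills 61.1% and 63.0%, and the red segment of Ptger1 shrinks to 1.90% in library 1.

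The values of Ptger1 have a limit of annotation. How the authors' counting treated strand is not given in the sources used here. Reads from genes whose exons lie on opposite strands of the same bases therefore cannot be told apart from these tables, which leaves the level of Ptger1 and its shares uncertain. For Ptger4 the opposite-strand overlap was 1015 of 6648 exonic bases, with Gm15937, a processed pseudogene that had 2 counts in library 2 and 5 in library 1. A further 82 exonic bases of Ptger4 were shared with the protein-coding gene Ttc33, also on the opposite strand, which had 401 and 656 counts. Without Ptger1, Ptger4 took 73.1% of the TPM of the other 3 receptors in library 2 and 64.2% in library 1.

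**Figure D2:**
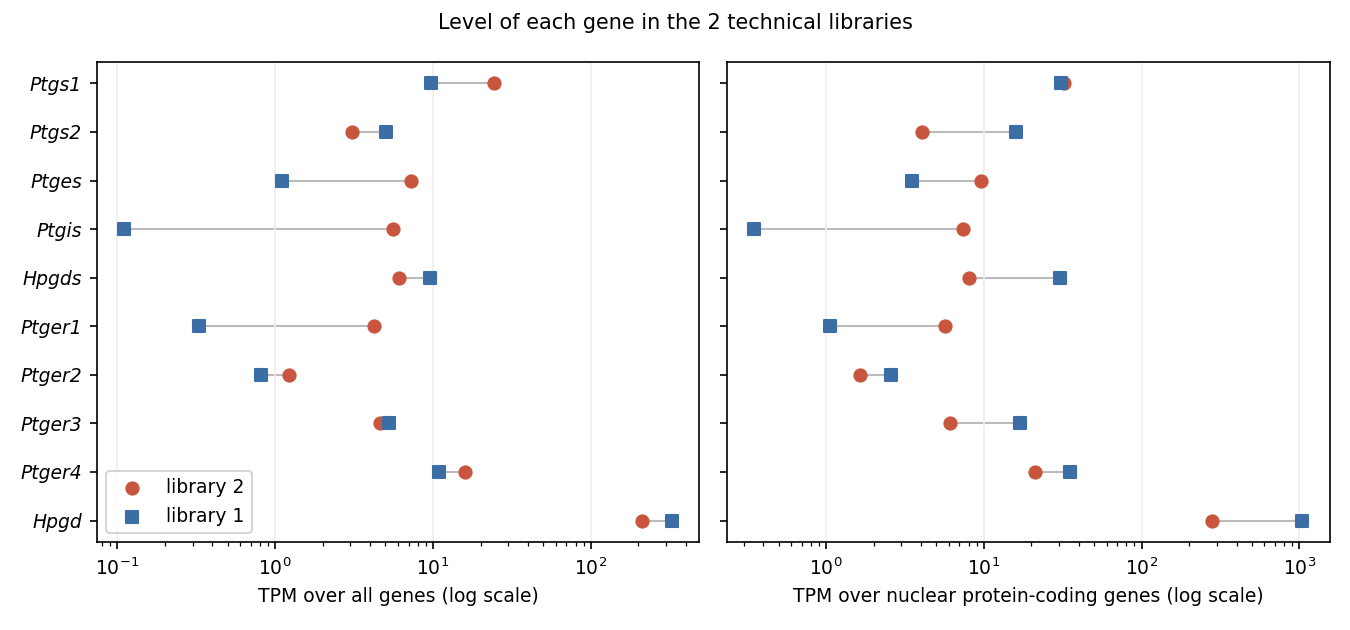
Level of each of the 10 genes (rows) in library 2 (circles) and library 1 (squares), as TPM over all genes on the left and over nuclear protein-coding genes alone on the right, both on log axes. Hpgd lies at 211 and 327 TPM on the left, apart from all others, and the Ptgs1 points nearly coincide on the right at 32.3 and 31.02 TPM.

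The balance of breakdown against synthesis was summarised as Hpgd over the summed TPM of Ptgs1 and Ptgs2, with non-coding transcripts included. This ratio was 7.70 in library 2 and 22.2 in library 1 (14.9 ± 10.2, SD, n = 2). Hpgd was thus above the cyclooxygenases together in both libraries, but the size of that excess differed by more than 2-fold between libraries of the same mouse. Against single members the ratio was steadier for some than for others. Hpgd over Ptgs2 was 69.2 in library 2 and 65.0 in library 1, and Hpgd over Hpgds was 34.6 and 34.4. Hpgd over Ptgs1 was 8.66 and 33.6, and Hpgd over Ptges was 28.98 and 297. The pairs with the steadiest ratio, Hpgd with Ptgs2 and with Hpgds, are pairs of genes with a similar base composition, at 40.5% GC for Hpgd, 40.02% for Ptgs2 and 42.1% for Hpgds. The next steadiest was Hpgd over Ptger3, at 45.9 in library 2 and 61.8 in library 1, although Ptger3 has 51.4% GC.

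The 2 libraries were then compared gene by gene, which asks how far a level of these genes can be read from a single library. Library 2 was set over library 1 with effective library sizes by TMM, a scaling that assumes most genes do not differ, and each gene was tested with a two-sided exact binomial test on its counts, adjusted by Benjamini-Hochberg over 15711 genes. A gene was called where its ratio was 2-fold or more and its adjusted p fell below 0.05. The test compares 2 libraries of 1 mouse and has no replicate check. Of the 10 genes 3 were called higher in library 2 (Ptgis, Ptger1 and Ptges), 4 lower (Ptgs2, Hpgds, Hpgd and Ptger3), and 3 were not called. Over all genes tested 65.2% were called, 37.0% higher and 28.2% lower, so the share among the 10 was near the background. Their median log2 ratio was -0.60, against 0.12 over all genes tested.

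Ptgis had the widest gap, with 153 counts in library 2 and 5 in library 1. The ratio of these counts was 22.7-fold (95% exact interval 9.53 to 71.0, counting error only). Ptger1, with the limit above, had a log2 ratio of 2.71 ± 0.29 (counting SE, adjusted p = 1.6e-32 by the exact binomial test). For Ptges it was 1.11 ± 0.17 (adjusted p = 3.8e-11, exact binomial test), just past 2-fold.

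On the other side the log2 ratio was -1.89 ± 0.12 for Ptgs2, -1.81 ± 0.10 for Hpgds and -1.80 ± 0.02 for Hpgd. These 3 values lay within their counting errors of one another. Ptger3 followed at -1.33 ± 0.16 (adjusted p = 1.4e-17, exact binomial test). The 3 genes not called were Ptgs1 at 0.42 ± 0.09, Ptger2 at -0.56 ± 0.25 and Ptger4 at -0.63 ± 0.07. The sign for Ptger2 and Ptger4 turned positive by total counts (0.19 and 0.12) and by the ratio of TPM values (0.60 and 0.53). For both genes the direction between the libraries therefore depends on the scaling.

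The direction of the difference went with base composition. The 3 genes higher in library 2 had a GC content (the share of G and C bases in their transcripts) of 54.1 to 58.4%, and Ptgs2, Hpgd and Hpgds, all lower in library 2, had 40.02 to 42.1%. The genes not called lay between, at 44.9 to 51.2%. Ptger3, lower in library 2 at 51.4%, was the exception. Genes at large showed the same order: the median log2 ratio was -1.57 over 2944 genes with 40 to 45% GC, 1.14 over 4174 genes with 50 to 55% and 3.52 over 2989 genes with 55 to 60%. In the first of these classes 85.1% were called lower and in the last 93.1% higher, so the calls of Ptgs2, Hpgd, Hpgds and Ptgis were those of most genes of like composition.

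**Figure D3:**
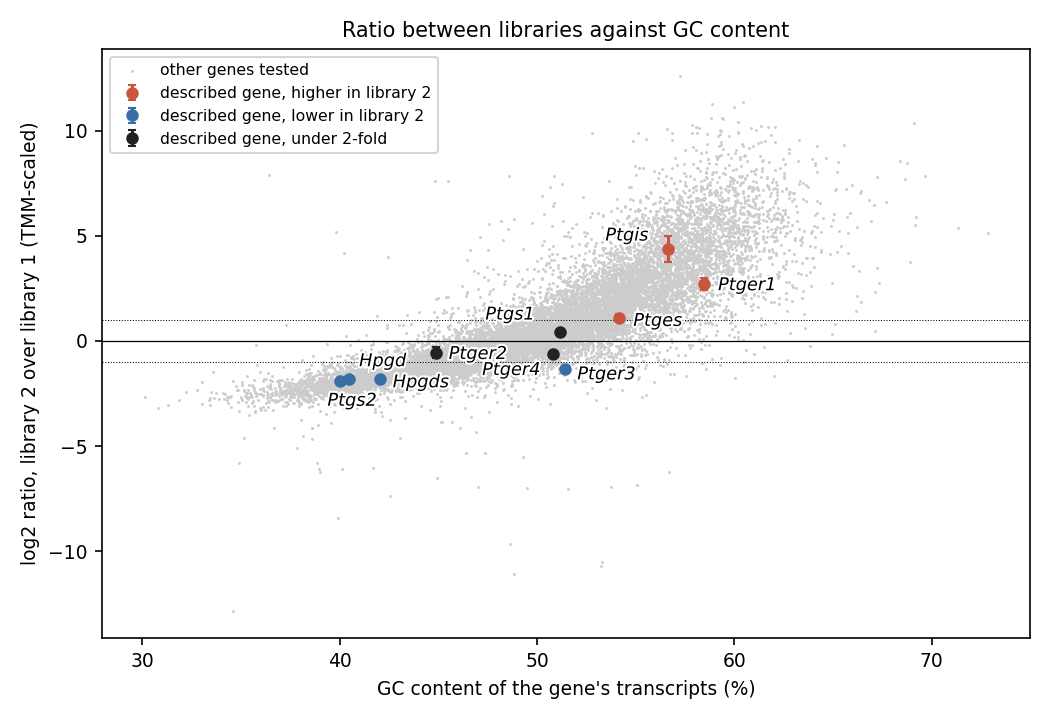
Log2 ratio of library 2 over library 1 (vertical axis, TMM-scaled, dotted lines at 2-fold) against the GC content of each gene's transcripts (horizontal axis, percent) for all genes tested (grey) and the 10 described genes (coloured, bars show the counting SE). The described genes climb with the grey cloud, while Ptger3, Ptger1, Ptger4 and Ptges lie below its trend, by 2.07, 1.45, 1.14 and 0.83 on the log2 scale.

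With a lowess curve of the ratio on GC content, fitted over all genes, taken off, Ptgs2, Hpgd and Hpgds came to 0.11, 0.13 and -0.14. None of these 3 was then called. Ptgis came to 1.09 (adjusted p = 0.092, exact binomial test) and Ptges to -0.83, and neither was called. Ptgs1 and Ptger2, also not called, changed sign to -0.23 and 0.56. The genes then called were Ptger3 at -2.07, Ptger1 at -1.45 and Ptger4 at -1.14, all lower in library 2. On this scale 23.7% of all genes were called, 12.4% higher and 11.2% lower. Ptger3 was the 1 gene of the 10 called in the same direction both ways, but by total counts its log2 ratio was -0.58 and it was not called, and by the ratio of TPM values it was -0.20. Its GC content is less certain than that of the others, because 1 of its transcripts, Ptger3-201, has 2018 bases in the authors' annotation and 3148 in the release the sequence was read from.

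**Figure D4:**
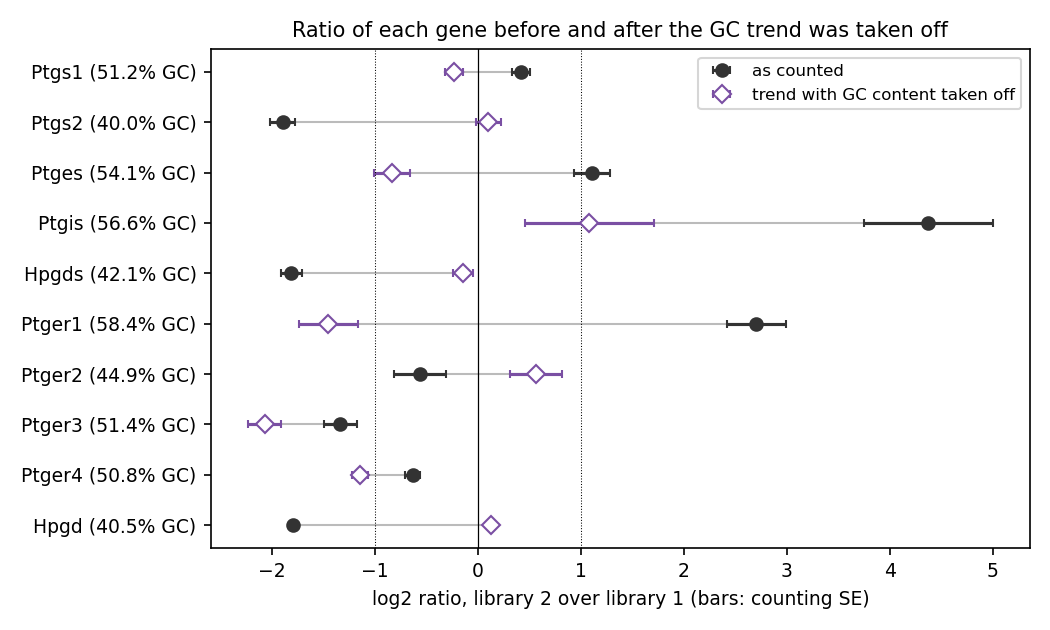
Log2 ratio of library 2 over library 1 (horizontal axis, bars show the counting SE, dotted lines at 2-fold) for each gene as counted (filled circles) and with the trend with GC content taken off (open diamonds). Hpgd, Hpgds and Ptgs2 move from near -1.8 to near 0, Ptger1 crosses from 2.71 to -1.45, and Ptger3 stays below -1.

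Markers of the cells known to use these genes moved between the libraries as well. The 8 smooth muscle markers were all called higher in library 2, with a median log2 ratio of 2.79 (1.55 with the GC trend taken off), beside Ptgis at 4.37 (1.09). The 6 blood endothelium markers summed to 77.3 TPM in library 2 and 14.2 TPM in library 1, with 4 called higher and none lower. Beside Ptgs1 and Hpgds, the 8 tuft cell markers summed to 25.9 TPM in library 2 and 10.1 TPM in library 1, with 4 of the 6 tested higher and 1 lower, and Il25 and Gfi1b at 0 counts in library 1. The 8 mast cell markers summed to 8.12 and 4.76 TPM, with 1 of 4 tested higher and 1 lower. Ms4a2 was at 0 in library 2 and Tpsb2 at 0 in library 1. The 8 macrophage markers summed to 252 and 31.5 TPM, with 5 higher and 1 lower. Hpgds was lower in library 2 by TPM and by scaled counts while these TPM sums were higher there. Over all genes tested, log2 ratios of TPM exceeded those of scaled counts by a median of 1.17. By scaled counts the median log2 ratio was 2.24 for the tuft, 3.05 for the macrophage and -0.03 for the mast cell markers tested. With the GC trend taken off the contrast with Hpgds was small: these medians were 0.24, 0.62 and 0.18, beside Hpgds at -0.14. Beside Hpgd, lower in library 2, 4 of 6 colonocyte markers were called higher and 1 lower. With the GC trend taken off their median log2 ratio was 0.67, against 1.23 as counted, beside Hpgd at 0.13, against -1.80 as counted. Of the other lists, all 5 red blood cell markers were higher (2802.5 TPM in library 2 and 70.9 TPM in library 1). For mesothelium 3 of 5 markers were higher and 1 lower. Krt19 held nearly all TPM of the mesothelium list: 2034 of 2041 in library 2 and 33.7 of 35.1 in library 1. Msln and Upk3b, also higher, had only 6 and 10 counts in library 1. Not every list leaned higher. Of 6 fibroblast markers 1 was higher and 2 lower, and of 6 enteric neuron markers 1 was higher and 2 lower. Of 3 markers of interstitial cells of Cajal 1 was higher and 1 lower. Over all genes tested 37.0% were called higher and 28.2% lower. Genes of the mitochondrial genome took 12.6% of the TPM of library 2, against 44.2% in library 1. The part of cell makeup and of RNA quality in the differences between libraries was not tested.

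Transcript shares added detail that gene totals hide. The authors' annotation held 25 transcripts of the 10 genes, 14 protein-coding and 11 without a coding sequence by their M21 types, and 5 of the 25 were at 0 counts in both libraries. Hpgd and Ptger2 had a single transcript each. For Ptgs2 all counts were assigned to Ptgs2-201 and for Hpgds to Hpgds-201 in both libraries, and Ptgis-201 took 98.1% of Ptgis in library 2 and 100% in library 1.

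Ptger3 had the clearest difference of this kind. Its transcripts Ptger3-201 and Ptger3-202 both encode EP3 and differ in the end of the coding sequence, the tail of the receptor inside the cell. Their coding ends are shown because the balance between them turned over between the libraries (GENCODE M21, chromosome 3, plus strand, 5′ to 3′). Lower case marks the last 30 of 1010 shared coding bases, and capitals mark the coding bases, with the stop codon, that belong to that transcript alone.

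Ptger3-201: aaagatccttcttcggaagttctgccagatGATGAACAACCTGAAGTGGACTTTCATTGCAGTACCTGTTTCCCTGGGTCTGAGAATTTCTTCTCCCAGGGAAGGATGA

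Ptger3-202: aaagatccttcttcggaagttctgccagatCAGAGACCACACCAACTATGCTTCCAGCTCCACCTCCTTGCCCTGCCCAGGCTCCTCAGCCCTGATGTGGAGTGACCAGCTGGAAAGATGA

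Ptger3-201 has 79 coding bases of its own and encodes 362 amino acids, and Ptger3-202 has 91 and encodes 366. Ptger3-202 took 87.1% of Ptger3 in library 2 and 31.5% in library 1, with 110 and 76.5 expected counts. Ptger3-201 took 12.9% and 68.5%, with 15.7 and 160 expected counts. The lower total of Ptger3 in library 2 thus lay in Ptger3-201. The GC content was 53.3% for Ptger3-202 and 48.9% for Ptger3-201, and its part in the shares was not tested. The value for Ptger3-201 was read from a sequence of 3148 bases, while the authors' annotation gave this transcript 2018 bases.

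For Ptger4, Ptger4-201 took 76.7% in library 2 and 100% in library 1, and Ptger4-202, which differs in its coding sequence, took 23.1% and 0%. Together they left 0.13% of Ptger4 in library 2 to a non-coding transcript. For Ptgs1 the coding transcript Ptgs1-201 took 71.2% in library 2 and 55.8% in library 1. The rest of Ptgs1 was assigned to short transcripts without a coding sequence. Of these, the retained-intron transcript Ptgs1-202 took 14.6% in library 2 and 0% in library 1, and the retained-intron transcript Ptgs1-205 took 7.85% in library 2 and 44.2% in library 1, where it rested on 49 counts over a length of 663 bases. Counted on the coding transcript alone, Ptgs1 was at 17.4 and 5.43 TPM. For Ptges the coding transcript Ptges-202 took 71.0% in library 2 and 100% in library 1. Ptges-203, without a coding sequence, took 19.95% in library 2, where it rested on 5.59 counts. By posterior mean TPM the share of Ptges-202 differed little, at 62.5% in library 2 and 67.4% in library 1. For Ptger1 the coding transcript Ptger1-201 took 76.9% in library 2 and 26.1% in library 1, or 203 and 8.88 expected counts. Most of the 28 counts of Ptger1 in library 1 therefore lay on the retained-intron transcript Ptger1-202.

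**Figure D5:**
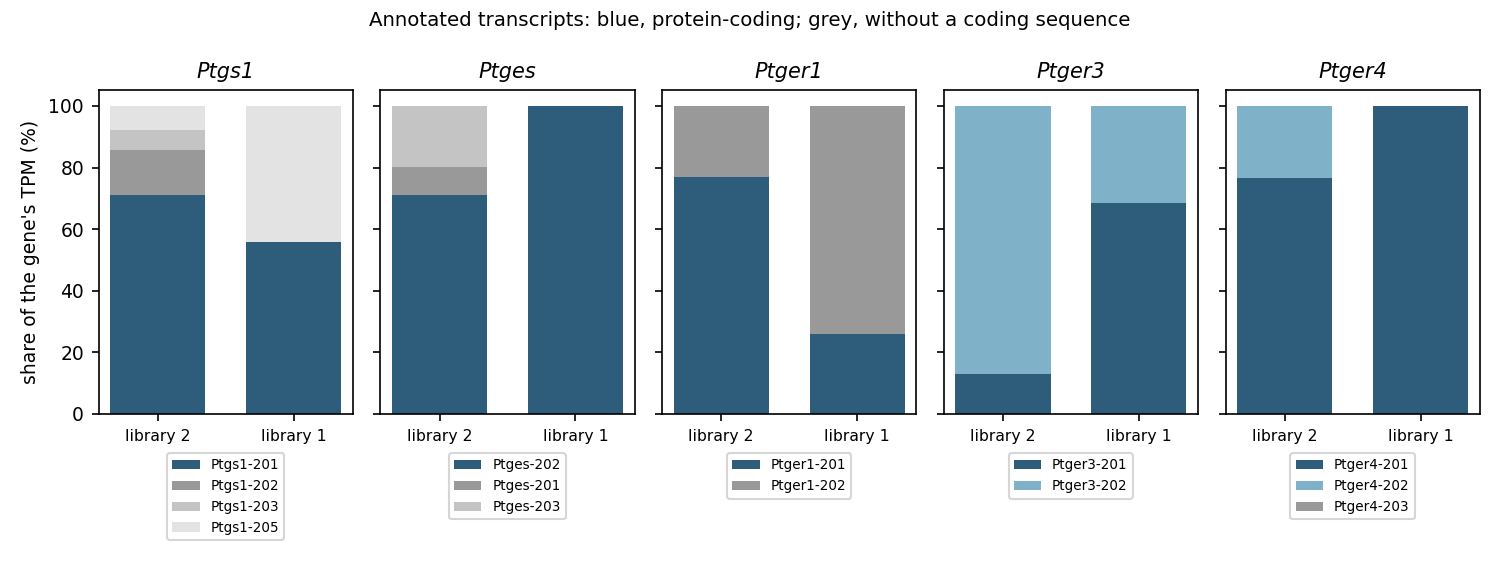
Share of each annotated transcript in the TPM of its gene (vertical axis, percent) for the 5 genes whose shares differed most, with library 2 left of library 1 in each panel. Blue bars are protein-coding transcripts and grey bars have no coding sequence. Ptger3-202 fills 87.1% of Ptger3 in library 2 and 31.5% in library 1. The gap shown for Ptges-202 was small by posterior mean TPM, at 62.5% in library 2 and 67.4% in library 1.

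The genes around the 10 were read from a list of 46 other genes of arachidonic acid metabolism, of which 45 were found in the tables. Of these 34 passed the count filter: 17 were called higher in library 2, 6 lower and 11 were not called, with a median log2 ratio of 1.02 (also 1.02 with the 2 genes at 0 in library 1 set to their bound, and 0.40 with the GC trend taken off, 7 higher and 3 lower). With the trend taken off the higher ones were Pla2g10, Pla2g2a, Ptges2, Cbr1, Akr1b8, Alox5ap and Dpep1, and the lower ones Pla2g4b, Pla2g5 and Ptgir. The background for the first counts is the 37.0% higher and 28.2% lower given above, and for the second the 12.4% and 11.2%.

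Phospholipases release the arachidonic acid that cyclooxygenases use. The most abundant of the 14 listed in library 2 was Pla2g10, a secreted enzyme of colon epithelium, at 89.2 TPM in library 2 and 8.87 TPM in library 1. The cytosolic enzyme Pla2g4a, the main supplier of arachidonic acid for cyclooxygenases, was at 36.1 and 44.95 TPM and led in library 1. It was closer between libraries by TPM than the other phospholipases named, yet was called lower in library 2 by scaled counts (log2 ratio -1.52 ± 0.05). The secreted enzyme Pla2g2f was at 36.4 and 1.37 TPM and Pla2g5 at 15.7 and 3.93 TPM. Pla2g4f was at 8.76 and 1.10 TPM, and Pla2g12a at 8.48 and 2.49 TPM. Pla2g2a, whose gene is known to be disrupted in the C57BL/6 strain, was at 5.91 and 0.49 TPM. Of the 11 tested in this group, 6 were called higher in library 2 and 2 lower, beside 37.0% and 28.2% over all genes tested. With the GC trend taken off, 2 were higher and 2 lower, beside 12.4% and 11.2%. Beside those named, Pla2g6 was higher with 190 and 2 counts and Pla2g4b with 48.5 and 10.3, and Pla2g4c was lower with 39 and 85. Counts of Pla2g4b were not whole, which makes its level uncertain.

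Several other terminal enzymes were above the 3 synthases among the 10 in library 2, but not all of them in library 1. Cbr1, a carbonyl reductase that can act on prostaglandin E2, was at 238 TPM in library 2 and 14.9 TPM in library 1. Akr1b3, an aldose reductase that can make prostaglandin F2α, was at 96.7 and 27.7 TPM, and its relative Akr1b8 at 55.3 and 4.79 TPM. Ptges3, a co-chaperone also named cytosolic prostaglandin E synthase, was at 53.8 and 96.8 TPM. Counts of Akr1b3 and Ptges3 were not whole, so some of their reads were shared with other genes and their levels are uncertain. Ptges2, a membrane-associated prostaglandin E synthase, was at 33.1 and 0.36 TPM, with 570 and 7 counts. Cbr1, Akr1b3, Akr1b8 and Ptges2 were called higher in library 2, and Ptges3 and Akr1c18 lower, the last with 12 and 20 counts.

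Receptors of other prostanoids were sparse. The 5 listed summed to 4.13 TPM in library 2 and 0.92 TPM in library 1, against 25.9 and 17.4 TPM for the 4 EP receptors. Tbxa2r, the thromboxane receptor, had 57 counts in library 2 and 0 in library 1. That is at least 14.1-fold higher in library 2 when library 1 is set to 3 counts. Ptgfr, the prostaglandin F receptor, had 29 and 55 counts and was called lower (log2 ratio -1.34 ± 0.33). For transport and later breakdown, the prostaglandin uptake carrier Slco2a1 was at 26.7 and 3.45 TPM and was called higher. The reductases Ptgr2 and Ptgr1, which act after Hpgd, were at 44.1 and 36.5 TPM and at 12.2 and 3.68 TPM and were not called.

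In the leukotriene and lipoxygenase arm, 5 of 9 tested genes were called higher in library 2 and 1 lower. With the GC trend taken off, 2 were higher and 0 lower. Over all genes tested 37.0% were called higher and 28.2% lower as counted, and 12.4% and 11.2% with the trend taken off. Dpep1, a dipeptidase that trims leukotriene D4, was at 188 TPM in library 2 and 10.8 TPM in library 1. Lta4h, a leukotriene A4 hydrolase, was at 71.3 and 18.9 TPM and was not called. Alox5ap, the protein that presents arachidonic acid to 5-lipoxygenase, had 119 and 3 counts, a ratio of 29.5-fold (95% exact interval 9.84 to 145, counting error only). Alox5 itself had 111 and 31 counts, and Alox15 321 and 103. Both Alox5 and Alox15 were called higher in library 2. Ltc4s, the leukotriene C4 synthase, had 44 and 0 counts, at least 10.9-fold higher in library 2 on a floor of 3 counts. The leukotriene receptor gene Cysltr1 was the one called lower, with 99 and 376 counts and 37.2% GC, the lowest GC content of the list.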

How the data were processed

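RNA-seq was deposited for 2 technical libraries of 1 mouse sigmoid colon, which form 1 group. Per the text files beside the tables, the authors used mouse assembly mm10 with GENCODE M4. For the aligner, the quantifier, their versions and the strand setting, the answer is not given in the sources used here. Per the file headers, the tables hold expected counts (estimated counts, reads that match several transcripts being shared out by a model), TPM with a posterior mean, and each transcript's percent of its gene. The file headers also name bounds of the TPM and FPKM values, which were not used.

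Symbols matched 42462 of 43346 Ensembl genes. GENCODE M21 gave positions, types and sequences (GRCm38, the same assembly as mm10) and had a sequence for 97.9% of 103639 transcripts. GC content was weighted by TPM over both libraries, and 99.7% of the genes tested had a value. Promoters came from RefSeq.

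Expected counts were rounded for tests. Genes with a mean of at least 10 counts entered. Each was tested by a two-sided exact binomial test with library sizes scaled by TMM (edgeR 4.0.16, R 4.3.3), whose ratio of library 2 over library 1 was 1.35, since 1 library on each side gives edgeR's quasi-likelihood test no residual degrees of freedom. Benjamini-Hochberg adjustment ran over all genes tested. Ratios used a prior count of 0.5. Trends were lowess curves with a fraction of 0.2 (statsmodels 0.14.6, scipy 1.17.1, Python 3.11.15). The test was checked on simulated counts with counting error only and no GC trend, so that check does not cover the trend between these libraries. Alternatives were DESeq2 1.42.0 size factors, total counts, nuclear protein-coding totals, GC and length trends, other filters, prior counts and posterior means. Depth was 20681574 and 25843064 expected counts, and a count of 0 was read against 3 counts. The genes, lists and rules were chosen with earlier results of these data known. The genes named were the 10, pathway genes at a mean of 5 TPM or more or called between libraries, and transcripts with at least 10% of their gene.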

Additional observations from a re-analysis of the deposited data

How the results depend on the processing

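Technical libraries limit every statement: n = 2, 1 mouse, and no residual spread for a test. The counts of the 10 genes called were 3 higher and 4 lower in library 2 and kept within 1.5 times of this under DESeq2 size factors, total counts, nuclear protein-coding totals, the length trend, other count filters and no minimum fold. With no minimum fold 4 of the 10 were higher and 6 lower. With the GC trend taken off, 0 of the 10 were called higher. For the other pathway genes, 7 were then higher and 3 lower, and by total counts 24 were higher and 2 lower. With the GC trend taken off the sign also turned for Ptgs1 (-0.23), Ptgs2 (0.11), Ptges (-0.83), Ptger1 (-1.45), Ptger2 (0.56) and Hpgd (0.13), and with the length trend taken off for Ptgs1 (-0.16). By total counts it turned for Ptger2 (0.19) and Ptger4 (0.12), and by the ratio of TPM values for Ptger2 (0.60) and Ptger4 (0.53). Log2 ratios of TPM exceeded the log2 ratios of scaled counts by a median of 1.17. By total counts Ptger3 (-0.58) was no longer called, which left 3 genes lower, and Ptgs1 (1.17) was called, which made 4 higher. The cause of each change was not tested. By expected counts, without length correction, Ptger4 averaged 66.3% (61.7% in library 2 and 70.95% in library 1) and Ptger2 5.69% of the EP receptor total. Over nuclear protein-coding genes alone the mean level moved by more than 1 SD for 7 of the 10 genes, among them Hpgd at 662 TPM. Posterior mean TPM kept all 10 mean levels within 1 SD. Shares of transcripts from posterior means moved for 4 of 14 transcripts, the most for Ptgis-201 (59.0% averaged over libraries), which had 5 counts in library 1. No paired analysis was possible because there is 1 group.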
